A study of Mus musculus with 2 samples.

Results

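Transcripts of 9 receptor genes for dopamine and noradrenaline were measured in total RNA of the mouse hippocampus: the dopamine receptors Drd1, Drd5 and Drd2, and the adrenergic receptors Adra1a, Adra1b, Adra1d, Adra2a, Adra2c and Adrb1. They were chosen by gene symbol, and all 9 were found among the 55536 annotated genes of the gene table. The tissue came from 2 female adults of B6CASTF1/J, a cross of the mouse strains CAST/EiJ and C57BL/6J, at 8 to 10 months of age, and 1 library was made per animal from 300 ng of RNA. Replicate 2 is animal 5 and replicate 1 is animal 1. Neither animal carried a listed allele or treatment, so the libraries form 1 group and no conditions were compared. The labels name the tissue as a layer of the hippocampus without saying which layer, and they give both animals a single donor identifier. The animal numbers were taken as 2 separate mice, and each SD rests on that reading.

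Dopamine and noradrenaline are catecholamines, made from tyrosine in neurons whose cell bodies lie in the midbrain and brainstem and whose axons reach the hippocampus, with noradrenaline coming mainly from the locus coeruleus. Their receptors span the membrane and signal through G proteins: the alpha1 receptors through Gq and phospholipase C, the alpha2 and D2 class receptors through Gi, which lowers cyclic AMP, and the beta and D1 class receptors through Gs, which raises it. In the hippocampus they are known for their part in arousal, novelty and the lasting strengthening of synapses.

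The receptors are related in sequence, and the stretch shown here is the one in which all 9 can be lined up by eye: the end of the third membrane span, where receptors of this family carry aspartate, arginine and tyrosine in a row at the face that meets the G protein. Capitals mark those 3 codons, with 12 bases on each side, read from the coding strand of GENCODE M21 transcripts on mm10. The 3 codons occurred once in the reading frame of each member. In Drd2 the stretch crosses an intron.
Adra1a (chr14:66637932-66637964, plus strand): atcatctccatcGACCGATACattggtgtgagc
Adra1b (chr11:43835645-43835677, minus strand): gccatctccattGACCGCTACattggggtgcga
Adra1d (chr2:131561590-131561622, minus strand): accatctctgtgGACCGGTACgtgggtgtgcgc
Adra2a (chr19:54046635-54046667, plus strand): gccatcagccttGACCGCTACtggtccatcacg
Adra2c (chr5:35280315-35280347, plus strand): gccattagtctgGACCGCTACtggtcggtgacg
Adrb1 (chr19:56722822-56722854, plus strand): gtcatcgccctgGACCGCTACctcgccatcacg
Drd1 (chr13:54053819-54053851, minus strand): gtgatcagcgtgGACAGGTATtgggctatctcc
Drd5 (chr5:38320056-38320088, plus strand): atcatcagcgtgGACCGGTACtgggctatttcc
Drd2 (chr9:49399829-49400759, plus strand): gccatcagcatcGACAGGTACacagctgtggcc
The aspartate codon was GAC in every member, while the arginine codon was AGG in Drd1 and Drd2 and began with CG in the other members. Over whole coding sequences the 36 pairs of members shared between 58.1% and 74.8% of aligned bases, with a median of 63.4%. The closest pairs were Adra2a with Adra2c at 74.8%, Drd1 with Drd5 at 70.5% and Adra1b with Adra1d at 69.0%. The longest run of identical bases between any pair was 26, in Adra2a and Adra2c. The deposited SD of read assignment at the gene level was 0 counts for all 9 genes in both libraries, so no reads were divided between members or with other genes.

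Depth was 28356913 expected counts on annotated genes in replicate 2 and 34147402 in replicate 1. Markers of the hippocampal fields were present in both libraries, at summed TPM, the length-normalised abundance deposited by the authors, of 129 in replicate 2 and 116 in replicate 1 for 5 dentate granule cell genes. The sums were 300.2 TPM in replicate 2 and 259 TPM in replicate 1 for 4 CA1 genes, and 103 TPM in replicate 2 and 96.4 TPM in replicate 1 for 4 CA3 genes. Markers listed for other regions were present too. The 5 neocortical neuron genes summed to 98.5 TPM in replicate 2 and 96.5 TPM in replicate 1. The 5 thalamic neuron genes summed to 51.3 TPM in replicate 2 and 46.2 TPM in replicate 1. The source of these transcripts was not tested. The libraries stood apart in the choroid plexus and activity-regulated marker lists. The 10 choroid plexus genes summed to 652 TPM in replicate 2 and 30.8 TPM in replicate 1, each of the 10 being higher in replicate 2, with a median log2 ratio of 2.92. The 7 activity-regulated genes summed to 78.2 TPM in replicate 2 and 199.7 TPM in replicate 1, with a median log2 ratio of -1.11. The 5 catecholamine neuron genes, each below 1 TPM, had a median log2 ratio of 1.11. That median rests on the 2 genes with a mean count of at least 10. In bulk tissue, fewer cells of a type and less RNA per cell cannot be told apart.

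All 9 receptor genes reached the level counted here as detected, a TPM of at least 1 in both libraries. Their levels were modest: the 13010 detected nuclear protein-coding genes had a median of 17.5 TPM, and Adra1d alone among the receptors lay above it. The 9 genes together held 86.5 TPM in replicate 2 and 91.9 TPM in replicate 1. The 6 adrenergic genes made up 83.8% ± 5.17 and the 3 dopamine genes 16.2% ± 5.17 (SD, n = 2).

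The Gq-coupled alpha1 class was the most abundant. It summed to 45.5 TPM in replicate 2 and 50.4 TPM in replicate 1, or 53.7% ± 1.57 of the TPM of all 9 receptors (SD, n = 2). Adra1d, which encodes the alpha1D receptor (ENSMUSG00000027335.9, chr2:131545850-131562283, minus strand), had 35.8 TPM in replicate 2 and 39.3 TPM in replicate 1, a mean of 37.5 ± 2.47. These values rest on 1133 and 1489 expected counts, and both animals placed Adra1d far above every other member. By mean TPM, 73.9% of detected nuclear protein-coding genes lay below it. Adra1a, which encodes the alpha1A receptor (ENSMUSG00000045875.13, chr14:66635251-66771168, plus strand), had 7.45 TPM in replicate 2 and 9.27 TPM in replicate 1, from 531 and 785 counts. Adra1b, the gene of the alpha1B receptor (ENSMUSG00000050541.14, chr11:43774606-43901210, minus strand), was the lowest adrenergic member, with 2.29 TPM in replicate 2 and 1.84 TPM in replicate 1 from 94 and 89 counts. The class is thus uneven: each animal had Adra1d first, Adra1a next and Adra1b last.

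The Gi-coupled alpha2 class, which includes the autoreceptors that limit noradrenaline release, summed to 14.3 TPM in replicate 2 and 20.3 TPM in replicate 1, or 19.3% ± 3.89 of all 9. Adra2c, the alpha2C receptor gene (ENSMUSG00000045318.6, chr5:35278319-35281763, plus strand), had 10.5 TPM in replicate 2 and 13.5 TPM in replicate 1, from 619 and 954 counts. Adra2a, the alpha2A receptor gene (ENSMUSG00000033717.6, chr19:54044151-54048982, plus strand), had 3.82 TPM in replicate 2 and 6.74 TPM in replicate 1, from 245 and 508 counts. Adra2c was above Adra2a in both animals, and both genes were lower in replicate 2. The only beta receptor in the set, Adrb1 (ENSMUSG00000035283.5, chr19:56722199-56733113, plus strand), a Gs-coupled receptor of noradrenaline and adrenaline, had 9.46 TPM in replicate 2 and 9.67 TPM in replicate 1, from 438 and 575 counts.

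The Gs-coupled D1 class summed to 15.4 TPM in replicate 2 and 9.89 TPM in replicate 1, which is 14.3% ± 4.98 of all 9. This sum, and the dopamine share above, include Drd1-203, a noncoding transcript of Drd1. It was given 3.97 TPM in replicate 2 and 0.82 TPM in replicate 1, from 21.3 and 5.25 expected counts. Drd5, encoding the D5 receptor (ENSMUSG00000039358.3, chr5:38319367-38322518, plus strand), had 6.6 TPM in replicate 2 and 6.29 TPM in replicate 1, from 355 and 405 counts. Drd1, encoding the D1 receptor (ENSMUSG00000021478.6, chr13:54051183-54055705, minus strand), had 8.80 TPM in replicate 2 and 3.60 TPM in replicate 1, from 313 and 209 counts. By gene TPM, Drd1 was thus above Drd5 in replicate 2 and below it in replicate 1, but over coding transcripts alone it was below Drd5 in both animals, with 4.83 TPM in replicate 2 and 2.78 TPM in replicate 1. The Gi-coupled D2 receptor gene Drd2 (ENSMUSG00000032259.8, chr9:49340627-49408177, plus strand) was the lowest member by mean gene TPM, with 1.81 TPM in replicate 2 and 1.67 TPM in replicate 1 from 78 and 86 counts. The annotation used holds 1 Drd2 transcript, of 444 codons in 7 coding exons, so the known long and short splice forms of this receptor were not separated.

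**Figure D1:**
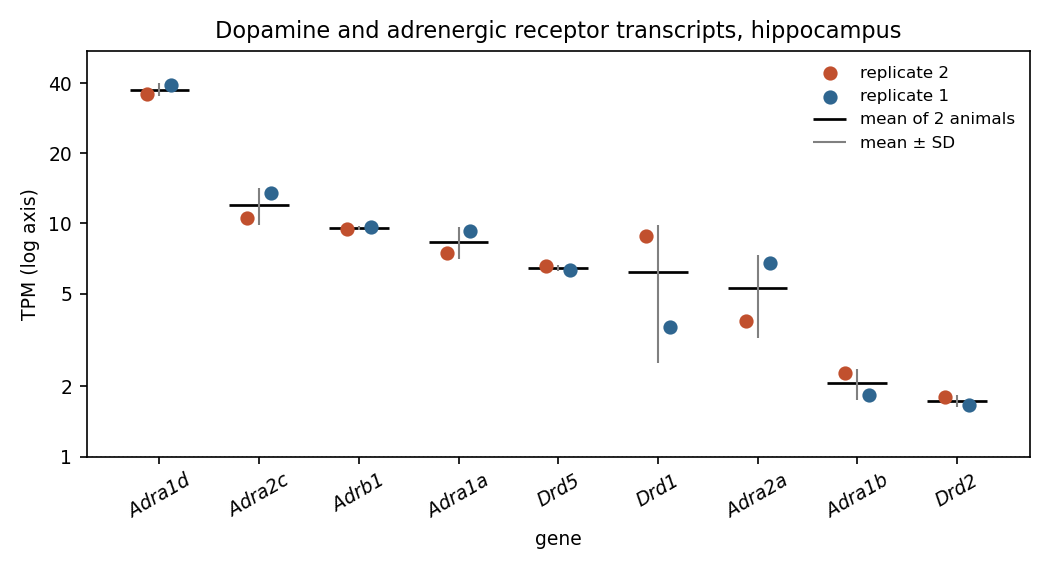
TPM of each receptor gene (log axis) in replicate 2 (left point) and replicate 1 (right point), with the mean as a horizontal bar and the SD over 2 animals as a vertical line. Adra1d stands at 37.5 TPM, 7 genes lie between about 2 and 12 TPM, Drd2 stands at 1.74 TPM, and the points of Drd1 and Adra2a are the farthest apart.

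Ordered by mean TPM, the genes ran Adra1d, Adra2c (12.02 ± 2.14), Adrb1 (9.57 ± 0.148), Adra1a (8.36 ± 1.29), Drd5 (6.45 ± 0.219), Drd1 (6.20 ± 3.68), Adra2a (5.28 ± 2.06), Adra1b (2.07 ± 0.318) and Drd2 (1.74 ± 0.0990), each as mean ± SD over 2 animals. Of the 8 neighbouring pairs, 5 were told apart, meaning that the gap exceeded the SD of both genes with the same sign in each animal. Adrb1 and Adra1a were not, since their gap of 1.21 TPM was below the SD of Adra1a. By gene TPM, Drd5 and Drd1 changed places between the animals, as did Drd1 and Adra2a.

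Parts of this order depend on which transcripts are counted, a comparison added after the gene values were seen. Over coding transcripts alone Drd1 had a mean of 3.81 ± 1.45 TPM, told apart below Drd5, and lay below Adra2a by mean. Adra1b then had 1.70 TPM in replicate 2 and 1.39 TPM in replicate 1, below Drd2 in both animals, and that pair was no longer told apart. This value leaves out Adra1b-202, annotated as noncoding, which covers the same exons as the coding Adra1b-204 and was given equal counts. The lower place of Adra1b thus rests on an even split of reads that cannot be assigned, and does not show it below Drd2. In the second transcript table, made by another quantifier, Drd1 had 5.08 TPM in replicate 2 and 2.42 TPM in replicate 1. Drd5 had 5.51 TPM in replicate 2 and 5.27 TPM in replicate 1 there, above Drd1 in both animals but within the spread of Drd1. In that table Adrb1 was above Adra2c in replicate 2, at 9.24 TPM against 8.74 TPM, and the pair was not told apart, whereas Adrb1 and Adra1a were. The pairs told apart in all 3 sets of values were Adra1d over Adra2c, Adra1a over Drd5, and Adra2a over Adra1b.

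An antisense gene overlaps Drd5 and another overlaps Adra1d, and the labels do not say whether strand was used in counting. Gm26560 shares 1531 exonic bases with Drd5 and had 10 counts in replicate 2 and 10 in replicate 1. Gm14285 shares 147 exonic bases with the 5′ part of Adra1d and had 19 counts in replicate 2 and 9 in replicate 1. The counts of both pairs were whole numbers with an assignment SD of 0 in each library, so the deposited counting divided no reads between a receptor and its antisense partner.

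The spread between the animals was then read as the log2 ratio of replicate 2 over replicate 1, from scaled expected counts. None of the 9 receptors was at least 2-fold apart by the criterion used here, that is 0 of 9. The criterion asks that the log2 ratio reach 1 in either direction, that the mean count reach 50 and that a 95% counting interval exclude a ratio of 1. Among the 8588 genes in the count range of the members, 82 to 1311 counts on average, 0.966% met it, and among all genes with a mean count of 50 or more 1.14% did, so the members' count is near this background. The median log2 ratio was -0.12 for the receptors and -0.01 for these genes, and the median size of the log2 ratio, whatever its sign, was 0.29 for the receptors and 0.15 for these genes.

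The counting interval excluded 1 for 5 of the 9 receptors, 1 higher and 4 lower in replicate 2, against 37.5% of the genes in the same count range, 17.5% higher and 20% lower. Drd1 was the one above, with a log2 ratio of 0.85 (interval 0.60 to 1.11), or 1.80-fold higher in replicate 2. Adra2a was the farthest below, with a log2 ratio of -0.78 (interval -1.01 to -0.56), or 1.71-fold lower in replicate 2. Of the genes in the count range of the members, 98.4% had a smaller ratio in size than Drd1, and 97.8% a smaller one than Adra2a. That range, 82 to 1311 counts, was not narrowed to genes near Drd1 (mean count 261) or Adra2a (376.5). Adra2c followed at -0.35 (interval -0.50 to -0.21), Adra1a at -0.29 (interval -0.46 to -0.13) and Adra1d at -0.12 (interval -0.24 to -0.01). The intervals of Adrb1 (-0.12), Drd5 (0.08), Drd2 (0.13) and Adra1b (0.34) included a ratio of 1. At 94 and 89 counts, the interval of Adra1b ran from -0.08 to 0.78, so a difference as large as that of Adra2c was not detectable at this depth.

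Signs of these ratios depend in part on scaling. With spike-in totals in place of the scaling over all genes, the median log2 ratio of all 18612 genes tested moved to -0.25, Drd5 changed sign to -0.17 and Drd2 to -0.12, Adra2a moved to -1.03 and met the 2-fold criterion, and Drd1 stayed above 0 at 0.59. Of the calls over all genes, 46 were higher and 168 lower with spike-in totals, against 90 higher and 74 lower with the main scaling. The same libraries differ in the choroid plexus and activity-regulated lists given above, and the part of either in the ratios of the receptors was not tested.

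**Figure D2:**
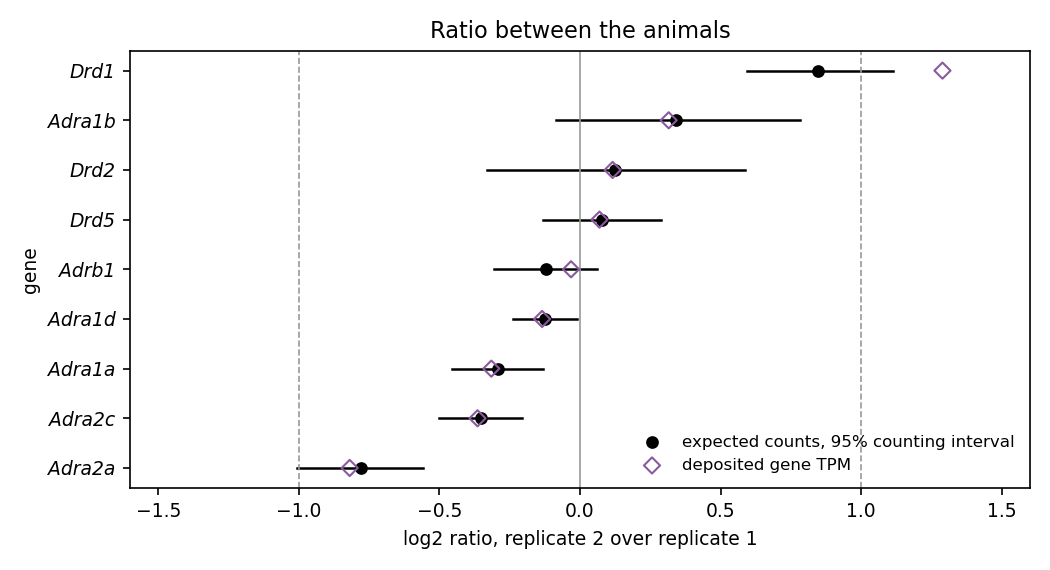
Log2 ratio of replicate 2 over replicate 1 for each receptor gene from expected counts (filled points, with the 95% counting interval as a line) and from deposited gene TPM (open diamonds); dashed lines mark a 2-fold difference. Drd1 lies at 0.85 and Adra2a at -0.78 by counts, and for Drd1 the diamond lies beyond the 2-fold line.

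For Drd1 the counts and the TPM gave different gaps: the TPM ratio of replicate 2 over replicate 1 was 2.44, against 1.80 from scaled counts. The deposited effective length of the gene was 2020 bases in replicate 2 and 2757 bases in replicate 1, a ratio of 0.733, and TPM divides by this length. The length follows from the transcripts to which reads were assigned. Drd1-201 and Drd1-202 share an upstream first exon and hold the coding sequence, while Drd1-203, a noncoding transcript of 405 bases, starts downstream. Drd1-203 was given 45.1% of the gene's TPM in replicate 2 and 22.7% in replicate 1, from 21.3 and 5.25 expected counts with an assignment SD of 4.49 and 3.06 counts. In the second transcript table it had 13.8% in replicate 2 and 0% in replicate 1, from 2.61 and 0 estimated counts. The share of Drd1-203 thus rests on few reads and on the quantifier. Counting the coding transcripts alone, the log2 ratio of Drd1 was 0.79 (interval 0.52 to 1.05) and the TPM ratio 1.74.

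The 2 coding transcripts of Drd1 differ in the length of the first exon, and Drd1-202 has a reading frame of 439 codons against 446 in Drd1-201. The first table gave 292 counts to Drd1-201 and 0.0700 to Drd1-202 in replicate 2, but 0 to Drd1-201 and 204 to Drd1-202 in replicate 1. The assignment SD was about 84 counts for each in replicate 2 and 40 to 41 in replicate 1, and the second table gave nearly all reads to Drd1-202 in both libraries (340 and 225 estimated counts). The switch between these transcripts is within what the assignment cannot resolve, and their sum is the usable value.

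RefSeq, on build GRCm38.p6, lists a start site at each end of this arrangement, at chromosome 13 positions 54055658 and 54054780, the first bases of Drd1-201 and of Drd1-203. The promoters are shown since the TPM ratio of Drd1 between the animals depends on the share assigned to each start. Each runs from 250 bases before to 50 bases after the start site on the minus strand. Capitals mark the GC box, GGGCGG or its reverse complement.
Drd1 upstream start (chr13:54055609-54055908): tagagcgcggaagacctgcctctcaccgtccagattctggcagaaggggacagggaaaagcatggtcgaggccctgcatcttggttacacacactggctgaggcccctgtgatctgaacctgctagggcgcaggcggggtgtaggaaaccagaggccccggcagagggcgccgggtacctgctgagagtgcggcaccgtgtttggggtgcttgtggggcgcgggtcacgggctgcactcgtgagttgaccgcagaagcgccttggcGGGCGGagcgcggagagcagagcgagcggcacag
Drd1 downstream start (chr13:54054731-54055030): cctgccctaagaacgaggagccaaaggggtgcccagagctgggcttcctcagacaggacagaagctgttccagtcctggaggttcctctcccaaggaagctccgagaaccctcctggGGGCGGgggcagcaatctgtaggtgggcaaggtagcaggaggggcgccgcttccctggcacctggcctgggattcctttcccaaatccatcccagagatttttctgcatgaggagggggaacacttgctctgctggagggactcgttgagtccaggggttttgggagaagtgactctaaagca
The upstream promoter of Drd1 is 65.7% G and C with 23 CpG dinucleotides, and the downstream one 59.3% with 6. Each holds 1 GC box.

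Markers of striatal projection neurons, the cell type in which Drd1 and Drd2 are best known, were examined beside these values. The 9 striatal genes, which leave out the receptors, summed to 116 TPM in replicate 2 and 94.2 TPM in replicate 1, with 8 of 9 higher in replicate 2 and a median log2 ratio of 0.13, against 0.00 over all genes tested. None met the 2-fold criterion. Penk, the precursor of enkephalin, which hippocampal interneurons and granule cells also make, had 38.0 TPM in replicate 2 and 18.2 TPM in replicate 1, a log2 ratio of 0.98. Most of the gap between the 2 sums lay in Penk. Adora2a, a receptor of adenosine, had 0.750 TPM in replicate 2 and 1.29 TPM in replicate 1. Gpr6 had 0.710 TPM in replicate 2 and 0.650 TPM in replicate 1. Both genes were near the detection level in each library, and their log2 ratios from counts were 0.17 for Adora2a and 0.13 for Gpr6, each with an interval that included a ratio of 1. Tac1 and Ppp1r1b of the same list were higher in replicate 2 with intervals that excluded a ratio of 1. Their log2 ratios were 0.53 (interval 0.10 to 0.98) for Tac1 and 0.45 (interval 0.30 to 0.59) for Ppp1r1b. Rgs9, the gene of the list that was not higher, had -0.18 (interval -0.41 to 0.05). The part of this list in the Drd1 ratio was not tested.

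Adra1a has 6 annotated transcripts with several coding ends. Adra1a-201, Adra1a-202 and Adra1a-205 read on through the second coding exon to 466 codons, whereas Adra1a-203 leaves that exon and joins another, ending after 427 codons. The full end held 46.2% of the gene's TPM in replicate 2 and 61.3% in replicate 1, and the alternative end 47.9% in replicate 2 and 34.1% in replicate 1. In the second transcript table the full end held 49.5% in replicate 2 and 64.1% in replicate 1, and the alternative end 43.9% and 31.7%. The 2 transcripts without either end held 5.92% in replicate 2 and 4.59% in replicate 1 of the first table. Both quantifiers thus put the alternative end at a substantial share in each animal and at a higher share in replicate 2. In counts, the full end had 252 in replicate 2 and 487 in replicate 1, and the alternative end 252 and 267. Much of the gap in the full end came from Adra1a-201, with 31.5 counts in replicate 2 and 177 in replicate 1 and an assignment SD of 23.1 and 52.0 counts, so the shares carry an error beyond counting.

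The fork is shown at the last base the 2 ends have in common, chromosome 14 position 66727831 of mm10, on the plus strand. Capitals mark what follows that base: Adra1a-202 continues into position 66727832, and Adra1a-203 joins position 66731564, where 12 coding bases and a TGA stop codon follow, against 129 coding bases in Adra1a-202.
Adra1a-202, full end (chr14:66727811-66727852): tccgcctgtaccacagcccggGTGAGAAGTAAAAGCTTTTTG
Adra1a-203, alternative end (chr14:66727811-66731578, spliced): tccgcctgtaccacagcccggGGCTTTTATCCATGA
The tail that differs is the intracellular end of the receptor, a region that in such receptors carries sites for regulation after activation.

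**Figure D3:**
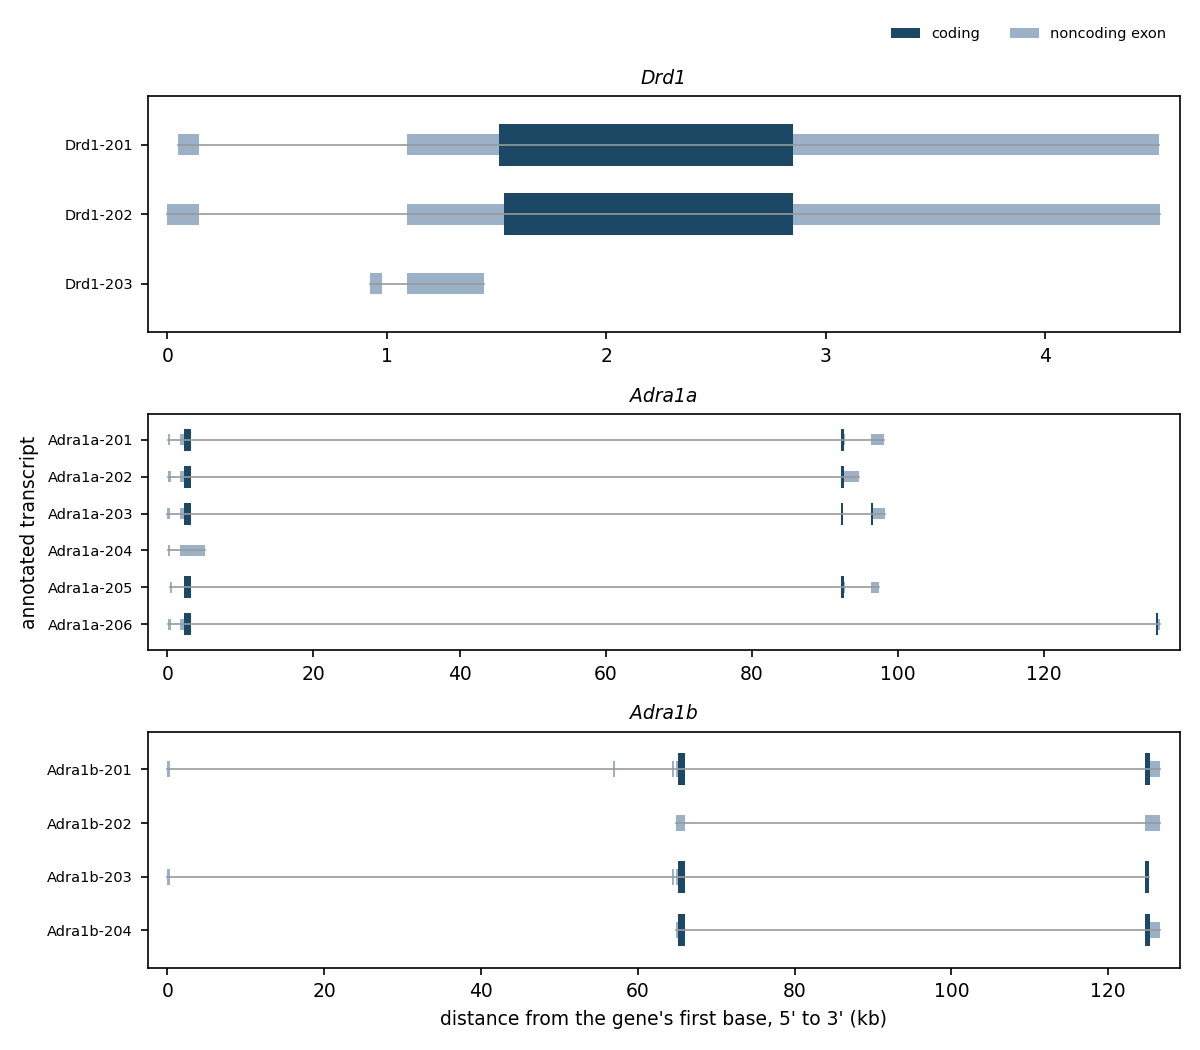
Annotated transcripts of Drd1, Adra1a and Adra1b, drawn to scale from the first base of each gene in kilobases, with coding exons dark, noncoding exons pale and introns as lines. Drd1-203 starts inside the gene, Adra1a transcripts end in different exons, and Adra1b has an upstream and a downstream first exon.

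Adra1b starts at 2 places. Adra1b-201 and Adra1b-203 begin at an upstream first exon and Adra1b-202 and Adra1b-204 at a downstream one, and the first table divided the gene's TPM almost evenly, with 48.4% upstream in replicate 2 and 50.9% in replicate 1. The second table gave more to the upstream start, 65.4% in replicate 2 and 60.7% in replicate 1. The upstream share was 49.7% ± 1.79 in the first table and 63.1% ± 3.31 in the second (SD, n = 2), so the quantifiers differed by more than the animals did. Adra1b-202, annotated as noncoding, and the coding Adra1b-204 had equal counts in each library, 30.7 each in replicate 2 and 28.1 each in replicate 1. They cover the same exons, so their reads were split evenly rather than measured apart.

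RefSeq start sites of Adra1b lie at chromosome 11 positions 43901237 and 43836489 of GRCm38.p6, near the first bases of these transcripts, 43901210 and 43836332. Both promoters are shown because they differ in composition while each start holds a sizeable share of the gene's TPM. Capitals mark the GC box (GGGCGG) and the CCAAT box (CCAAT) on either strand, and the sequences read along the minus strand.
Adra1b upstream start (chr11:43901188-43901487): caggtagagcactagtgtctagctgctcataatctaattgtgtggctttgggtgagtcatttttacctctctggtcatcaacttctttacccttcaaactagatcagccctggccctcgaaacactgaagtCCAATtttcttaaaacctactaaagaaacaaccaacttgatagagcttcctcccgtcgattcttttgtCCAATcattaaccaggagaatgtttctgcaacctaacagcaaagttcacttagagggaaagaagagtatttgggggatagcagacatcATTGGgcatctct
Adra1b downstream start (chr11:43836440-43836739): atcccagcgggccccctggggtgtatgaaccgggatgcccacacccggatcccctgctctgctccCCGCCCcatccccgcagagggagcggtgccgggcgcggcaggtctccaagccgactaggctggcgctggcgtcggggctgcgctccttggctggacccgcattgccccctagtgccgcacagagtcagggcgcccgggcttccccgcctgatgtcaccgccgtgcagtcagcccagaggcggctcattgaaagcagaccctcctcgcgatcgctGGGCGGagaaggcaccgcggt
The upstream promoter of Adra1b is 42.3% G and C, with 3 CpG dinucleotides, 3 CCAAT boxes and no GC box. The downstream one is 71.3% G and C, with 28 CpG dinucleotides, 2 GC boxes and no CCAAT box.

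In all, RefSeq promoters matched 7 of the 9 genes and gave 9 sequences of 300 bases; Adra1a and Adra1d had none in the table. The letters GGGCGG were found, on either strand, in 7 of the 9 and in 35.7% of 32851 promoters of this length. That set, called all promoters here, leaves out chromosome 18. CCAAT was found in 3 of the 9 and in 37.4% of all. TATAAA was found only in the promoter of Adra2a among the 9 and in 13.6% of all. The cyclic AMP response element TGACGTCA was in 0 of the 9 and in 1.79% of all, which says only that these letters are not in these windows. The G and C content of the 9 ran from 42.3% to 72.3%, against a median of 52.7% over all promoters.

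The remaining transcript choices were more one-sided. Adra2a-202, spliced from 2 exons, held 87.7% of the TPM of Adra2a in replicate 2 and 93.3% in replicate 1, and the unspliced Adra2a-201 held 12.3% and 6.70%. Both encode the same 465 codons. In the second table the unspliced form held 19.0% in replicate 2 and 14.5% in replicate 1. Adrb1-201, the coding transcript of Adrb1, held 90.9% of TPM in replicate 2 and 98.8% in replicate 1, and the noncoding Adrb1-202 of 494 bases held the rest from 6 counts in replicate 2 and 1 count in replicate 1. Drd2, Drd5, Adra1d and Adra2c have 1 annotated transcript each.

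**Figure D4:**
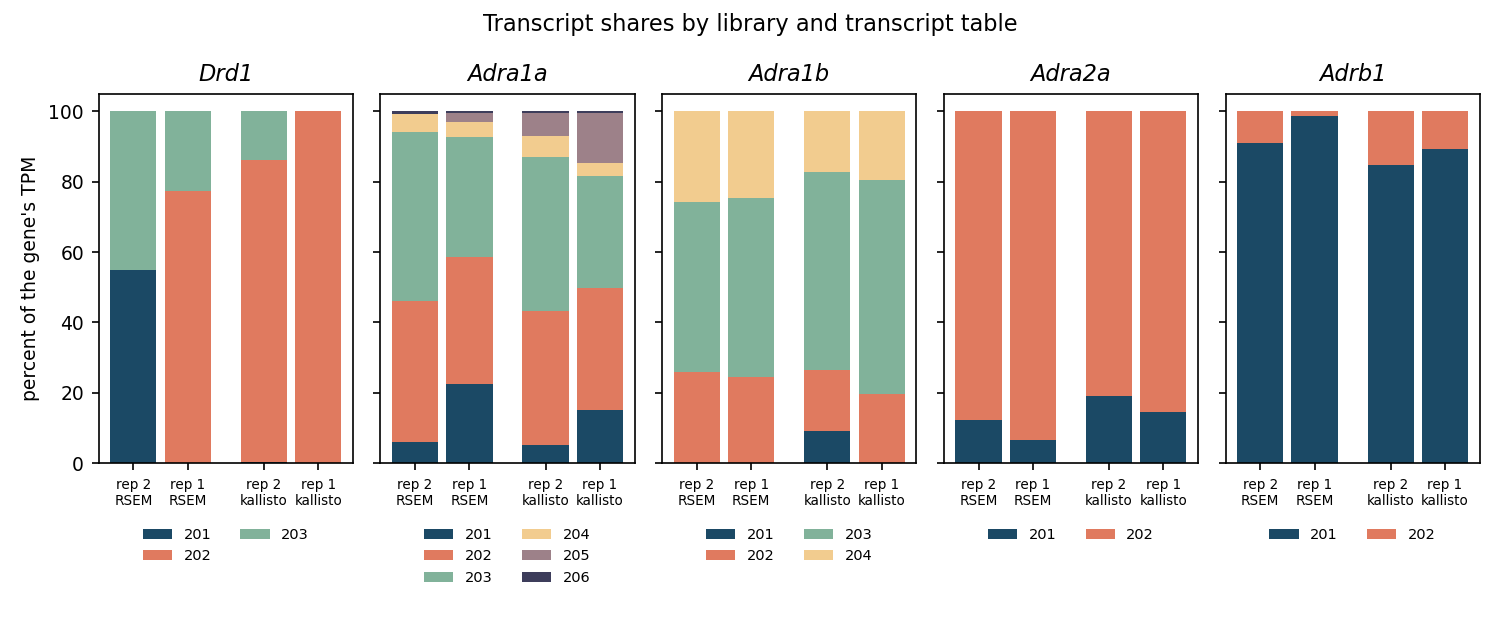
Percent of each gene's TPM held by its annotated transcripts in replicate 2 and replicate 1, for the first transcript table (RSEM) and the second (kallisto). The bars of Adra2a and Adrb1 are dominated by 1 transcript in each library, those of Drd1 change between tables, and Adra1a-203 is taller in replicate 2 than in replicate 1 in both tables.

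Of the other receptors of these families, 4 are described here, and each was below detection in both libraries. Drd3, a D2 class receptor, had 0 counts in both libraries, which allows up to 0.115 TPM in replicate 2 and 0.0959 TPM in replicate 1 at a floor of 3 counts per library. Drd4, also of the D2 class, had 0.260 TPM in replicate 2 and 0.0400 TPM in replicate 1, from 9 and 2 counts. Adra2b had 0.240 TPM in replicate 2 and 0.200 TPM in replicate 1 from 16 counts in each library, and Adrb3 had 0.210 TPM in replicate 2 and 0.220 TPM in replicate 1.

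Genes that make and package the ligands were low. Of 6 such genes, 1 was detected: Ddc, the decarboxylase shared with serotonin synthesis, which had 4.55 TPM in replicate 2 and 3.74 TPM in replicate 1. Th, the rate-limiting enzyme of catecholamine synthesis, had 6 counts in replicate 2 and 5 in replicate 1. Dbh, which turns dopamine into noradrenaline, had 22 counts in replicate 2 and 6 in replicate 1. Its log2 ratio was 1.81 (interval 0.80 to 3.74), at a mean count too low for the 2-fold criterion. Pnmt, which makes adrenaline, had 0 counts in replicate 2 and 4 in replicate 1, and the vesicle carrier Slc18a2 had 49 and 44. The dopamine transporter Slc6a3, at 0.10 TPM in both libraries, and the noradrenaline transporter Slc6a2, at 0.0700 TPM in both, were also below detection.

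One low-affinity carrier and both monoamine oxidases were well above that, while the carrier Slc22a3 had 0.340 TPM in replicate 2 and 0.310 TPM in replicate 1. The monoamine carrier Slc29a4 had 18.0 TPM in replicate 2 and 18.9 TPM in replicate 1. The monoamine oxidase Maoa had 11.9 TPM in replicate 2 and 8.85 TPM in replicate 1, a log2 ratio of 0.43 (interval 0.29 to 0.58), and Maob had 9.37 TPM in replicate 2 and 7.30 TPM in replicate 1. None of these was 2-fold apart.

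**Figure D5:**
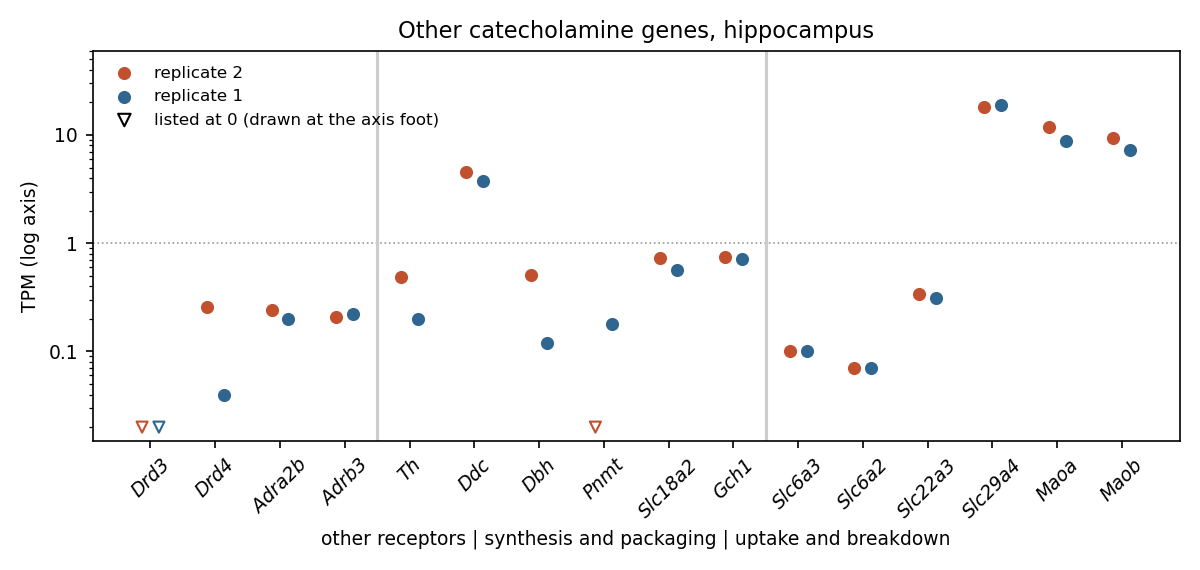
TPM (log axis) of 4 other receptors, of genes of catecholamine synthesis and packaging, and of 6 genes of uptake and breakdown, in replicate 2 (left) and replicate 1 (right); the dotted line marks the detection level of 1 TPM and open triangles a listed value of 0. Of the genes drawn, only Ddc, Slc29a4, Maoa and Maob lie above the line in both libraries.

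Downstream of the receptors, transcripts of the G proteins were far more abundant than those of the receptors. Gnas, the widespread stimulatory alpha subunit, had a mean of 852 TPM, and Gnal, its olfactory and striatal relative, 52.8 TPM. Of 5 inhibitory alpha subunits all were detected, led by Gnao1 at 330 TPM. Gnaq led the Gq class at 92.7 TPM with Gna11 at 56.0 TPM, while Gna14 averaged 0.970 TPM. All 7 adenylyl cyclases were detected, from Adcy8 at 6.57 TPM to Adcy1, the calcium-stimulated form, at 164 TPM. Of the 4 phospholipase C beta genes, Plcb1 led at 73.4 TPM and Plcb2 was lowest at 1.46 TPM. All 7 receptor kinases and arrestins were detected, with Grk2 at 89.6 TPM, Arrb1 at 81.9 TPM and Grk4 at 2.61 TPM.

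The 10 lists of other receptors and pathway genes held 53 genes, of which 46 had a mean count of at least 10, and 0 of these met the 2-fold criterion between the animals, against 0.881% of all 18612 genes tested. The 7 receptor kinases and arrestins had log2 ratios below 0 in 7 of 7, with a median of -0.14, and the 5 inhibitory G proteins a median of -0.14, against 9402 genes above and 9210 below 0 over all genes tested. Among 7 proteins of dopamine signalling, 6 had ratios above 0, with a median of 0.23. This list shares Ppp1r1b and Rgs9 with the striatal list, so the lists are not independent. Of these, Ppp1r1a, a phosphatase inhibitor controlled by protein kinase A, had 82.2 TPM in replicate 2 and 50.01 TPM in replicate 1 (log2 ratio 0.70, interval 0.59 to 0.82). Its relative Ppp1r1b, a phosphoprotein regulated by dopamine and cyclic AMP, had 30.8 TPM in replicate 2 and 25.8 TPM in replicate 1 (log2 ratio 0.45, interval 0.30 to 0.59). Under spike-in scaling the medians were -0.39 for the kinases and arrestins and -0.02 for the dopamine signalling proteins, when the median of all genes was -0.25.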

How the data were processed

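Total RNA was sequenced from 2 mice, with a directional kit that reduces ribosomal RNA and with ERCC spike-ins, per the labels' protocols. Per the file headers, the authors deposited a gene table and a transcript table in the column layout of RSEM, and a second transcript table in that of kallisto, on mouse build mm10 with GENCODE M21. Neither labels nor headers name the aligner, tool versions or strand setting. Since mm10 is a C57BL/6J sequence and the mice also carry CAST/EiJ alleles, reads from CAST/EiJ alleles may map less often. Expected counts were deposited without normalisation. The authors deposited TPM, normalised for transcript length over all table entries. FPKM was deposited by the authors and served as an alternative. Each transcript's percent of its gene's TPM was deposited in the first transcript table. The SD of read assignment was deposited as a signal in counts.

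Ratios of replicate 2 over replicate 1 used rounded expected counts, TMM scaling over genes with a mean count of at least 10 and a prior count of 2 in edgeR 4.0.16 under R 4.3.3. Expected counts on annotated genes totalled 28356913 in replicate 2 and 34147402 in replicate 1. Spike-ins, left out of the library sizes, came to 0.212% in replicate 2 and 0.178% in replicate 1. Intervals are exact Clopper-Pearson 95% intervals, and intervals and floors of 3 counts cover counting error only. With 1 group of 2 libraries no p-value was computed. DESeq2 1.42.0 size factors, spike-in and library totals, other prior counts, filters, thresholds and units, the second transcript table, and leaving out each replicate were tried, and coding transcripts alone were added after the data were seen. The ratio step was tested on simulated data. The members and gene lists were chosen with earlier results of these data known. All 9 members and all members of the pathway lists could be named, although some genes of the lists are not reported here, and marker genes only where they stand beside a member's result.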

Additional observations from a re-analysis of the deposited data

How the results depend on the processing

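All 9 receptors were also detected in the second transcript table and over coding transcripts alone; a TPM of at least 0.5, TPM rescaled to nuclear protein-coding genes, which raises each level, or either replicate alone must give 9 too, so these test nothing. At a TPM of at least 2, 7 were, without Adra1b and Drd2. Lowering the mean count of the 2-fold criterion to 10 also tests nothing, since every receptor averaged 82 counts or more. The count of receptors at least 2-fold apart was 0 under DESeq2 size factors, library totals, the second table, no filter, a prior count of 0.5 and coding transcripts alone (chosen after seeing the data). With spike-in totals it was 1, Adra2a at -1.03; the median of all genes then moved to -0.25, and 46 genes were called higher and 168 lower. The interval excluded 1 for 1 receptor higher and 5 lower with spike-in totals, and for 1 higher and 3 lower in the second table. In the main setting 1 was higher and 4 lower. Leaving out 1 of 2 replicates cannot move a mean by more than its SD and is not counted here. Of the other single values, 14 levels, 56 ratios and 3 transcript shares moved by less than the spread or interval, and 22, 7 and 8 by more, with no sign turned in a ratio whose interval excluded 1. Most of the levels that moved did so as FPKM or rescaled TPM, which only change the unit. All 7 ratios that moved did so under spike-in totals. With TPM rescaled to coding genes Adra1d stood at 75.1. Drd1 stood at 3.75 TPM in the second table and 3.81 TPM over coding transcripts. No paired analysis was possible because the libraries form 1 group. Depth limits Adra1b and Drd2 most, at 78 to 94 counts a library. With 2 animals no SD is precise.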
